A study of Mus musculus with 653 samples.

Results

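The genes described here are those of the R-spondin receptor system: the 3 receptors Lgr4, Lgr5 and Lgr6, the 4 secreted ligands Rspo1, Rspo2, Rspo3 and Rspo4, and the 2 membrane E3 ubiquitin ligases Rnf43 and Znrf3. They were taken by name from the raw count table, in which they are 9 of 54195 genes, and all 9 had reads. The study asked how Lgr5-expressing cells relate to the other hepatoblasts of the early mouse liver, and the question here is which cells held reads of a ligand and which of a receptor. Male Lgr5-EGFP-IRES-creERT2 mice on a C57BL/6 background, whose Lgr5 locus carries EGFP, an internal ribosome entry site and tamoxifen-inducible Cre, were crossed with MF1 females, and embryos were scored for GFP. Liver cells were sorted as Liv2+ CD31- CD45- cells at E10.5 or E13.5, either without a further gate (bulk) or as Lgr5-GFP+ cells, and the cDNA of each cell was amplified by Smart-seq2. Of the cells in the table, 31.1% were bulk and 32.3% Lgr5-GFP+ at E10.5, and 24.3% were bulk and 12.3% (80 cells) Lgr5-GFP+ at E13.5. The Liv2 antibody binds an antigen on the surface of hepatoblasts, CD31 marks endothelium and CD45 marks blood cells. GFP comes from the Lgr5 locus, so a higher level of Lgr5 in GFP+ cells is the gate and not a result.

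R-spondins bind the leucine-rich repeat receptors Lgr4, Lgr5 and Lgr6 and, together with them, the ligases Rnf43 and Znrf3. The ligases mark Frizzled receptors for removal from the cell surface, and a bound R-spondin takes the ligase away, which keeps Frizzled at the surface and strengthens the response to Wnt ligands. In adult liver this system is known for its part in the zonation of hepatocytes around the central vein, and Lgr5, Rnf43 and Znrf3 are themselves known Wnt target genes.

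In GENCODE coordinates on GRCm38, Lgr4 lies on chromosome 2 from 109917647 to 110014257 (plus strand), Lgr5 on chromosome 10 from 115450311 to 115587780 (minus strand) and Lgr6 on chromosome 1 from 134983301 to 135105276 (minus strand). Rspo1 lies on chromosome 4 from 124986430 to 125009099 (plus strand), Rspo2 on chromosome 15 from 43020794 to 43170826 (minus strand), Rspo3 on chromosome 10 from 29452416 to 29535867 (minus strand) and Rspo4 on chromosome 2 from 151842927 to 151874668 (plus strand). Rnf43 and Znrf3 both lie on chromosome 11, from 87662722 to 87735539 (plus strand) and from 5276324 to 5444847 (minus strand). Only the exons of Rspo3 overlap those of another annotated gene, the antisense gene Gm48159, with which they share 404 bases. Gm48159 had 266 reads over all cells against 19400 of Rspo3, and without strand the reads of the shared bases cannot be told apart.

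The RefSeq table of sequences before gene starts held windows for 5 of the 9 genes (Lgr4, Lgr6, Rspo1, Rspo4 and Rnf43) and was not used for Lgr5, Rspo2, Rspo3 and Znrf3. The 250 bases before the start of Rspo1 and Rspo4 are shown because the reads of both ligands lay in the same class of cells, and those of Lgr4 because its reads were spread over every class. They are given 5′ to 3′ on the strand of the gene (GRCm38.p6), with CpG dinucleotides in capitals.
Rspo1, chr4:124986180-124986429: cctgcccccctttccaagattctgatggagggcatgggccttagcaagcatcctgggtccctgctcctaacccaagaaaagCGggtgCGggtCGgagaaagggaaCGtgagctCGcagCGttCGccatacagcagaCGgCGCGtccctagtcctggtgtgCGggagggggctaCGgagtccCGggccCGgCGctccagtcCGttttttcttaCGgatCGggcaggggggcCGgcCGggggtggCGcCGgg
Rspo4, chr2:151842677-151842926: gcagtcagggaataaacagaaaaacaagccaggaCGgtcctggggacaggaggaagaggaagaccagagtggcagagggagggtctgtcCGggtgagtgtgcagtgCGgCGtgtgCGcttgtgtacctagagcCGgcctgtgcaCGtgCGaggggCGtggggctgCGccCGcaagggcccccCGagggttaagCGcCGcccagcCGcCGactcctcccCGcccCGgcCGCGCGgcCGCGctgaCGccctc
Lgr4, chr2:109917397-109917646: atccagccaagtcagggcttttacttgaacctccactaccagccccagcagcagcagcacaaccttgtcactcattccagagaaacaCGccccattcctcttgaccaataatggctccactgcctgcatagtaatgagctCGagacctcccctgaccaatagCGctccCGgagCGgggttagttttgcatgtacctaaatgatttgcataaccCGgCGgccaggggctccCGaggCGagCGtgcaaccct
The Rspo1 window holds 22 CpG dinucleotides, the Rspo4 window 24 and the Lgr4 window 10, against a median of 6.00 over the 32851 windows of the table. The core motif of the Wnt-responsive TCF/LEF factors, ATCAAAG or CTTTGAT on the other strand, was found in none of the 6 windows of these genes (2 of them for Rnf43) and in 3.21% of all windows. This says only that these letters are not in these bases.

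Cells were split by the lineage marker with the most reads among Afp (alpha-fetoprotein, of hepatoblasts), Klf1 (an erythroid transcription factor), Pdgfra (a receptor of mesenchymal cells) and Pax3 (a transcription factor of muscle progenitors), where that marker had over 10 reads. This gave an Afp class of 65 cells (9.95%), a Klf1 class (24.96% of cells), a Pdgfra class (23.12%), a Pax3 class of 32 cells (4.90%) and 242 unmarked cells (37.1%), and 13 cells had over 10 reads of more than 1 marker. All 9 other genes of a hepatoblast list had their highest level in the Afp class and all 7 of an erythroid list in the Klf1 class. Of 7 mesenchyme genes, 6 were highest in the Pdgfra class, and of 5 muscle progenitor genes, 5 were highest in the Pax3 class. In the Pax3 class the summed level of the mesenchyme list was 1140 RPM (reads in 1000000 reads on genes, summed over cells) and that of the muscle progenitor list 463 RPM. All 4 genes compared of a neural crest and neuron list were also highest in the Pax3 class, at 25.4 RPM summed. Of 6 mesothelium and septum transversum genes, 5 were highest in the Pdgfra class, as were 5 of 7 endothelium genes. Of 5 leukocyte genes, 4 were highest in the Afp class. Highest here means among the marker classes. The classes were unevenly spread over the groups. The Afp class held 55 Lgr5-GFP+ and 8 bulk cells of E10.5 but only 2 and 0 of E13.5. The Klf1 class held 79.2% of the bulk cells of E13.5 and 33 (16.3%) of those of E10.5. The Pdgfra class held 78 bulk and 65 Lgr5-GFP+ cells of E10.5, against 1 and 7 of E13.5.

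Animals, litters and sorts are not named in the labels. Each group therefore counts as 1 sample, no test between groups is possible and no p-value is given. Reads per cell ranged from 463347 to 2279700. The 5 library pools are given by the sample titles, and the labels do not say whether they hold cells of different embryos or sorts. Cells of pools 1 and 2 had a median of 4515 and 4488 genes with a read, and cells of pools 3, 4 and 5 of 6280 to 6606, at like depth (medians of 1144098 to 1258819 reads). Shares are of cells with over 10 reads of a gene and come with exact 95% binomial intervals. Intervals cover counting error only, since amplified reads without molecular identifiers are not independent molecules.

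Receptors were found in every class, but not the same receptors. Lgr4, the most widely found receptor, had over 10 reads in 245 cells (37.5%), and in these cells it was at 8.02 to 3846 RPM with a median of 165.5. The share was 75% of Pax3 class cells (interval 56.6 to 88.5%, 24 of 32), 61.5% of Afp class cells (48.6 to 73.3%, 40 of 65), 45.03% of Pdgfra class cells (36.94 to 53.33%, 68 cells) and 28.83% of Klf1 class cells (22.02 to 36.44%, 47 cells). Its summed level followed the same order, with 218 RPM in the Pax3 class, 171.3 in the Afp class, 95.9 in the Pdgfra class and 48.3 in the Klf1 class. Between pools (those holding 5 or more cells of the class) this level ranged from 133.3 to 233.1 RPM in the Pax3 class and from 112.6 to 237.9 RPM in the Afp class, so these classes did not differ beyond the spread of the pools. The range of the Klf1 class, 32.4 to 64.1 RPM, lay below both, and that of the Pdgfra class, 49.8 to 139.7 RPM, overlapped its neighbours. Stage and sort move with this order, since 77.3% of Klf1 class cells were E13.5 bulk cells. Within E10.5 bulk cells, Lgr4 was found in 51.5% of 33 Klf1 class and 51.3% of 78 Pdgfra class cells, at 94.3 and 137.9 RPM. Unmarked cells had Lgr4 in 27.27% (66 of 242), at 162.1 RPM.

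Lgr5, the receptor whose locus carries the reporter, had over 10 reads in 71 cells (10.9%), 62 of them E10.5 Lgr5-GFP+ cells. In these 71 cells it was at 7.21 to 1505 RPM with a median of 139.2. The share was 35.4% in the Afp class (23.9 to 48.2%, 23 of 65), 28.1% in the Pax3 class (13.7 to 46.7%, 9 of 32), 13.2% in the Pdgfra class (8.28 to 19.7%, 20 cells) and 0.613% in the Klf1 class (0.0155 to 3.37%, 1 cell). The Klf1 class held 0 E10.5 Lgr5-GFP+ cells and the Afp class mostly such cells, so the sort moves with these shares. Within the E10.5 Lgr5-GFP+ cells, where the gate is the same, the shares were 41.8% of 55 Afp class cells, 29.2% of 65 Pdgfra class cells and 28% of 25 Pax3 class cells, with intervals that overlap. Of the 66 unmarked cells of this group, 13 had Lgr5 (19.7%, 10.9 to 31.3%). Over all groups, 18 of the 71 cells with Lgr5 were unmarked. Reads of Lgr5 were missing in many GFP+ cells: 16 of the 55 Afp class cells, 10 of the 25 Pax3 class cells and 32 of the 65 Pdgfra class cells had 0 reads, against 66 of 78 Pdgfra class cells sorted as bulk.

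Lgr6, the third receptor, was close to absent. It had 324 reads in all, and over 10 reads in 5 cells, with 22 to 74 reads each. Of these, 2 lay in the Pdgfra class, 1 in the Klf1 class, 1 in the Pax3 class and 1 among the unmarked cells, and the Afp class held 0 of 65, which allows a share of up to 4.62%.

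**Figure D1:**
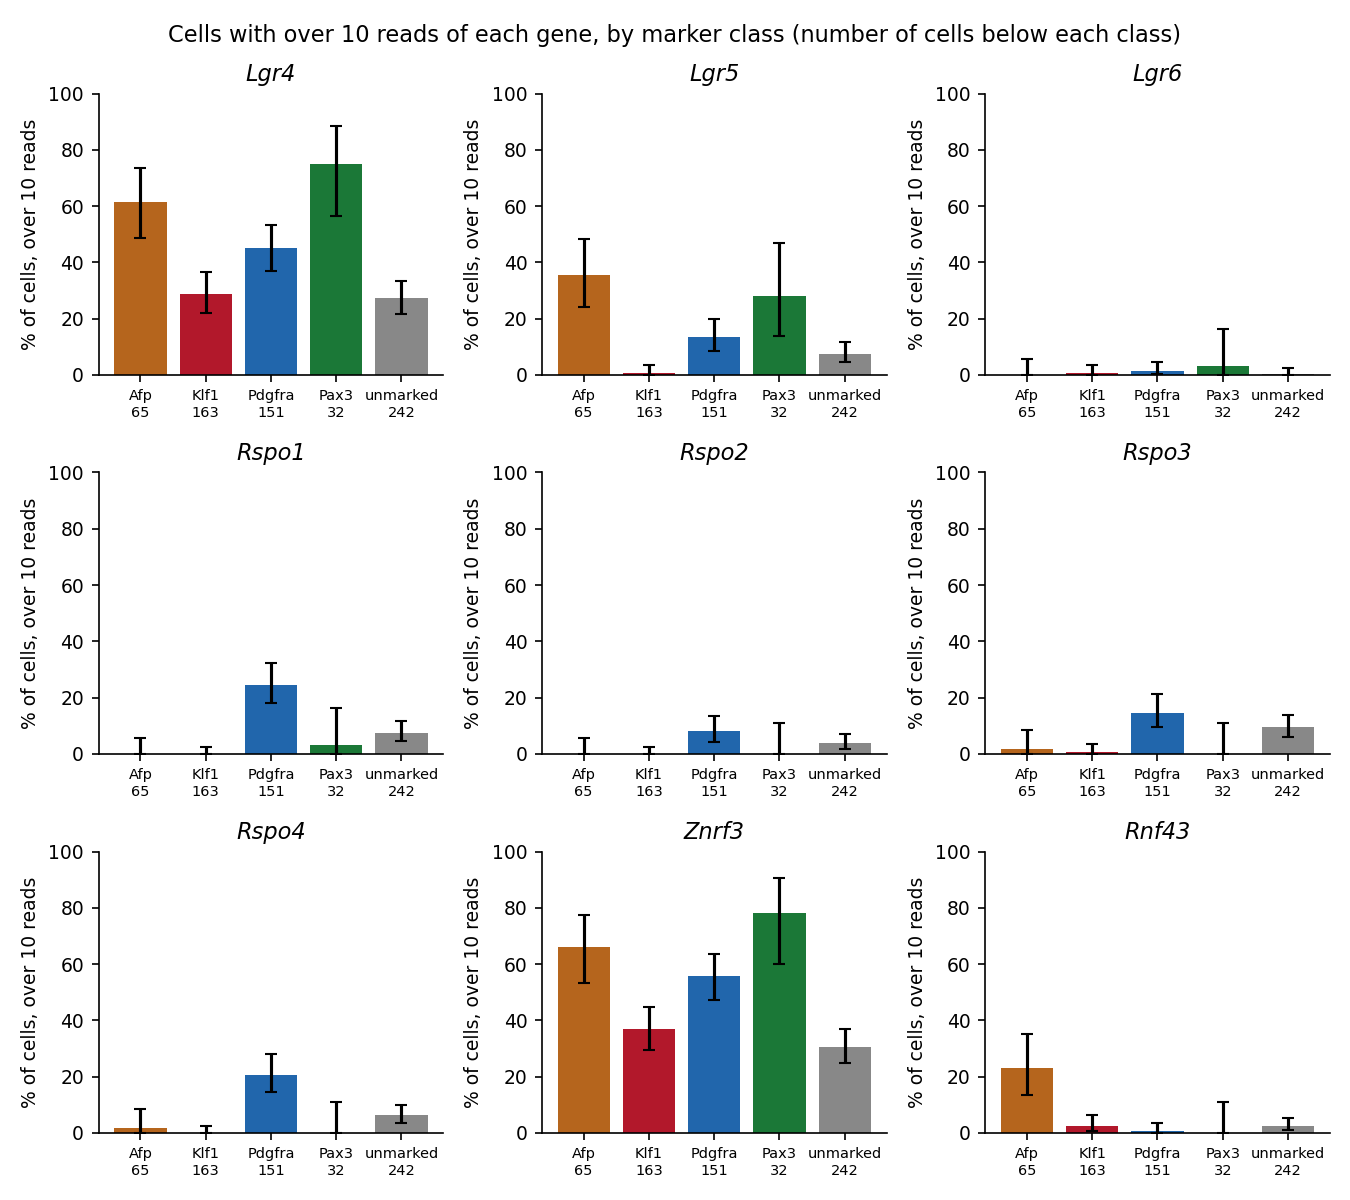
Share of cells with over 10 reads (y axis, % of cells) of each of the 9 genes in the 4 marker classes and the unmarked cells (x axis, with the number of cells). Bars are shares and lines are exact 95% binomial intervals. Lgr4 and Znrf3 have bars in every class, the 4 R-spondins have theirs mostly in the Pdgfra class (24.5% for Rspo1) and the unmarked cells, and Rnf43 has its own mostly in the Afp class (23.1%).

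R-spondin reads lay mostly in the Pdgfra class and in unmarked cells. Over all cells, 21.1% had over 10 reads of at least 1 R-spondin, and 80 of these cells were Pdgfra class cells and 54 unmarked. The Afp, Klf1 and Pax3 classes held 2, 1 and 1 of them. At least 2-fold higher in the Pdgfra class than in each other marker class, on the scale of RPM + 1, were all 4 R-spondins, where 11.9% of all 15943 genes compared were called the same way. Rspo2 and Rspo3 were also called with either set of pools left out, whereas Rspo1 was not called without pools 3, 4 and 5 (log2 ratio -0.19, to the Pax3 class) and Rspo4 not without pools 1 and 2 (0.82, to the Afp class), where the other class had 1 cell with over 10 reads in both cases.

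Rspo1, known for its part in ovary development, had over 10 reads in 56 cells (11.8 to 1481 RPM, median 177.2). The share was 24.5% of Pdgfra class cells (17.9 to 32.2%, 37 cells), 3.12% of Pax3 class cells (1 of 32), 0 of 65 Afp class cells, which allows up to 4.62%, and 0 of the Klf1 class cells, which allows up to 1.84%. Its summed level was 64.4 RPM in the Pdgfra class, 13.9 in the Pax3 class, all of it from 1 E13.5 Lgr5-GFP+ cell with 554 reads, and 0.0614 and 0.0492 in the Afp and Klf1 classes. Over all pools the Pdgfra class thus stood above the other marker classes in both the share and the level. Of the 18 unmarked cells with Rspo1, 7 had more genes of the mesenchyme list than of any other list and 3 more of the list of mesothelium and septum transversum. Another 7 had under 3 markers of any list, and 1 was a tie between lists.

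Rspo4, known for its part in nail development, followed the same pattern. It had over 10 reads in 47 cells (13.8 to 1532 RPM, median 189.6), of which 31 were Pdgfra class cells (20.5%, 14.4 to 27.9%) and 15 unmarked. The Afp class held 1 such cell, an E10.5 bulk cell with 807 reads, and the Klf1 and Pax3 classes held 0. The level was 62.2 RPM in the Pdgfra class against 10.03 in the Afp class, 0.0875 in the Klf1 class and 0.0251 in the Pax3 class. All 47 cells were E10.5 cells, 33 of them Lgr5-GFP+ and 14 bulk.

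Rspo3, a ligand known for its part in vessel development and in the zonation of the liver, had over 10 reads in 47 cells (23.2 to 3005 RPM, median 171.1). The share was 14.6% of Pdgfra class cells (9.36 to 21.2%, 22 cells), 1.54% of Afp class cells (1 of 65), 0.613% of Klf1 class cells (1 cell) and 0 of 32 Pax3 class cells, which allows up to 9.38%. The level was 30.4 RPM in the Pdgfra class and 45.9 RPM in the unmarked cells, against 1.28, 0.744 and 0.0754 in the Afp, Klf1 and Pax3 classes. Unlike Rspo1 and Rspo4, which had 1 and 0 such cells at E13.5, Rspo3 had 13.

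Of the 12 E13.5 Lgr5-GFP+ cells with Rspo3, 5 were unmarked cells with more genes of an endothelium list than of any other (288 to 628 reads of Rspo3), 3 were unmarked cells led by the mesenchyme list (319 to 1508 reads), 3 were Pdgfra class cells (59 to 987 reads) and 1 was an Afp class cell (98 reads). This split of the unmarked cells was chosen after the data had been seen and calls a list only from 3 of its genes. It found 20 endothelium-list cells, 16 of them E13.5 Lgr5-GFP+, and of these 16, 5 had Rspo3 (31.25%, 11.02 to 58.66%). Pecam1, the gene of CD31, and Cdh5, an endothelial cadherin, are among the 7 genes of that list, so their reads are part of how these cells were picked. Each had over 10 reads in 19 of the 20 cells, although cells with CD31 were gated out in the sort. Of the 20 cells, 11 were from pool 3 and 7 from pool 4. None of the 20 had over 10 reads of Lgr5, Rspo1, Rspo2 or Rspo4. At E10.5, by contrast, 28 bulk cells had Rspo3, and of these 14 were Pdgfra class cells and 7 unmarked cells led by the mesenchyme list. The single E13.5 bulk cell with Rspo3 had 3083 reads, 15.9% of all reads of the gene, and had under 3 markers of any list.

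Rspo2, known for its part in limb and lung development, was the least found ligand. It had over 10 reads in 21 cells (27.7 to 1424 RPM, median 170.3), of which 12 were Pdgfra class cells (7.947%, 4.174 to 13.47%) and 8 were unmarked cells led by the mesenchyme list. A further 21.7% of all cells had 1 to 10 reads of Rspo2, and cells with any read were 24.62% of the Afp class, 19.02% of the Klf1 class, 27.15% of the Pdgfra class and 25% of the Pax3 class. Shares from any read were thus alike in all classes, whereas over 10 reads were seen in the Pdgfra class and in unmarked cells only. Per kilobase of exon, on which genes can be compared with each other, the levels of the ligands in the Pdgfra class were 33.3 RPM per kilobase for Rspo1, 26.2 for Rspo4, 9.84 for Rspo3 and 3.09 for Rspo2.

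**Figure D2:**
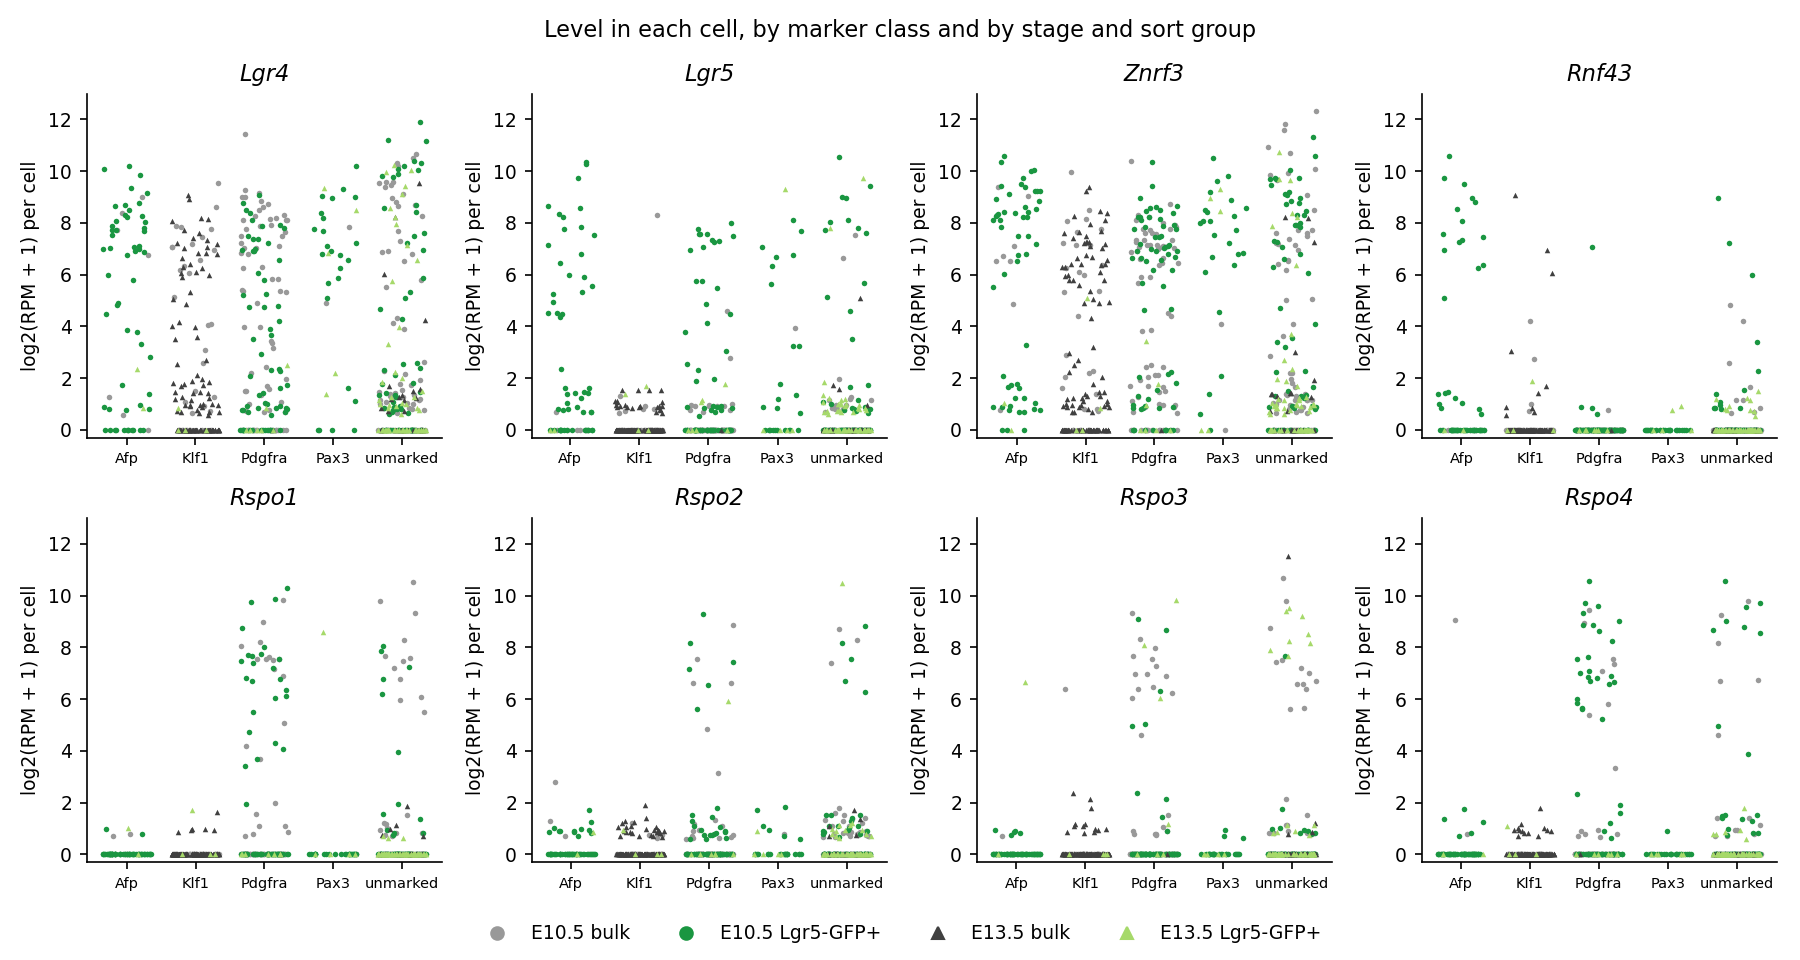
Level of 8 genes in every cell (y axis, log2 of RPM + 1 in that cell) by marker class (x axis), with each cell as a point, grey for bulk and green for Lgr5-GFP+, circles for E10.5 and triangles for E13.5. Rspo1 and Rspo4 points above 3 lie almost all in the Pdgfra class and the unmarked cells and are E10.5 circles, and the light green triangles of Rspo3 above 6 are mostly unmarked cells.

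The ligases differed in how widely they were found. Znrf3 was as wide as Lgr4: it had over 10 reads in 286 cells (43.8%, at 7.10 to 5168 RPM, median 178.4), in 78.12% of Pax3 class cells (60.03 to 90.72%), 66.2% of Afp class cells (53.4 to 77.4%), 55.6% of Pdgfra class cells (47.3 to 63.7%) and 36.8% of Klf1 class cells (29.4 to 44.7%). Its level was 275 RPM in the Pax3 class and 271 in the Afp class, which did not differ beyond the spread of the pools (238.3 to 406.9 and 213.1 to 379.2 RPM). It was lower in the Pdgfra class, with a counting interval of 114.4 to 117.5 RPM and pools from 13.92 to 187.3 RPM, and lowest in the Klf1 class at 59.06 RPM, with pools from 20.71 to 79.98 RPM. The Klf1 class was mostly E13.5 bulk cells (77.3%), so stage moves with this order. Within E10.5 bulk cells, Znrf3 was at 102.7 RPM in the Klf1 class and 88.06 RPM in the Pdgfra class, with shares of 48.5 and 52.6%.

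Rnf43 had over 10 reads in 26 cells (9.38 to 1532 RPM, median 151.2), of which 15 were Afp class cells, all of them E10.5 Lgr5-GFP+. The share was 23.1% of the Afp class (13.53 to 35.19%, 15 of 65), 2.45% of the Klf1 class (4 cells), 0.662% of the Pdgfra class (1 cell) and 0 of 32 Pax3 class cells, which allows up to 9.38%. Its level in the Afp class, 85.4 RPM (45.05 to 109.3 over pools), was above the 4.45 RPM of the Klf1 class, the next in order. Rnf43 was the only one of the 9 genes at least 2-fold higher in the Afp class than in each other marker class, a call made for 8.33% of all genes. None was called for the Klf1 class (6.69% of all genes) or the Pax3 class (6.08%). Of the 8 Afp class cells sorted as bulk, 0 had Rnf43, which allows up to 37.5%, so its presence in Afp class cells outside the Lgr5-GFP gate was not detectable at this number of cells. Among all bulk cells, 3 at E10.5 and 3 at E13.5 had over 10 reads of Rnf43.

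Per kilobase of exon, Znrf3 (34.3 RPM per kilobase) and Lgr4 (29.1) led the 9 genes in the Afp class, followed by Rnf43 (13.03) and Lgr5 (8.64). In the Pax3 class Lgr4 (37.1) and Znrf3 (34.9) led, with Lgr5 at 4.99. In the Pdgfra class, Rspo1 and Rspo4 stood above Lgr4 (16.3) and Znrf3 (14.7), and Lgr5 was at 1.61. In the Klf1 class, Lgr4 (8.21) and Znrf3 (7.48) were the only genes of the system above 1 RPM per kilobase.

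Ligand and receptor were then counted in the same cells. In the Pdgfra class, 53 cells (35.1%) had over 10 reads of both an R-spondin and an Lgr gene, 27 had an R-spondin only, 29 an Lgr gene only and 42 neither. In the Afp class 47 of 65 cells (72.3%) had a receptor only, 1 a ligand only and 1 both, and in the Pax3 class 26 of 32 (81.2%) had a receptor only, 1 a ligand only and 0 both. The Klf1 class had 49 cells (30.1%) with a receptor only. Of 68 unmarked cells led by the mesenchyme list, 15 held a ligand only (22.1%) and 13 both (19.1%). A further 13 held a receptor only and 27 neither (39.7%). Ligand and receptor were thus found in the same cell less often than in the Pdgfra class, and neither more often. The difference was not tested, and the cells compared also differed in pool. Pools 1 and 2 held 27 and 12 of the 68 unmarked cells. Of the Pdgfra class, 53 cells were from pools 1 and 2 and 98 from pools 3, 4 and 5. Within that class, cells with both were far rarer in pools 1 and 2 than in pools 3, 4 and 5.

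**Figure D3:**
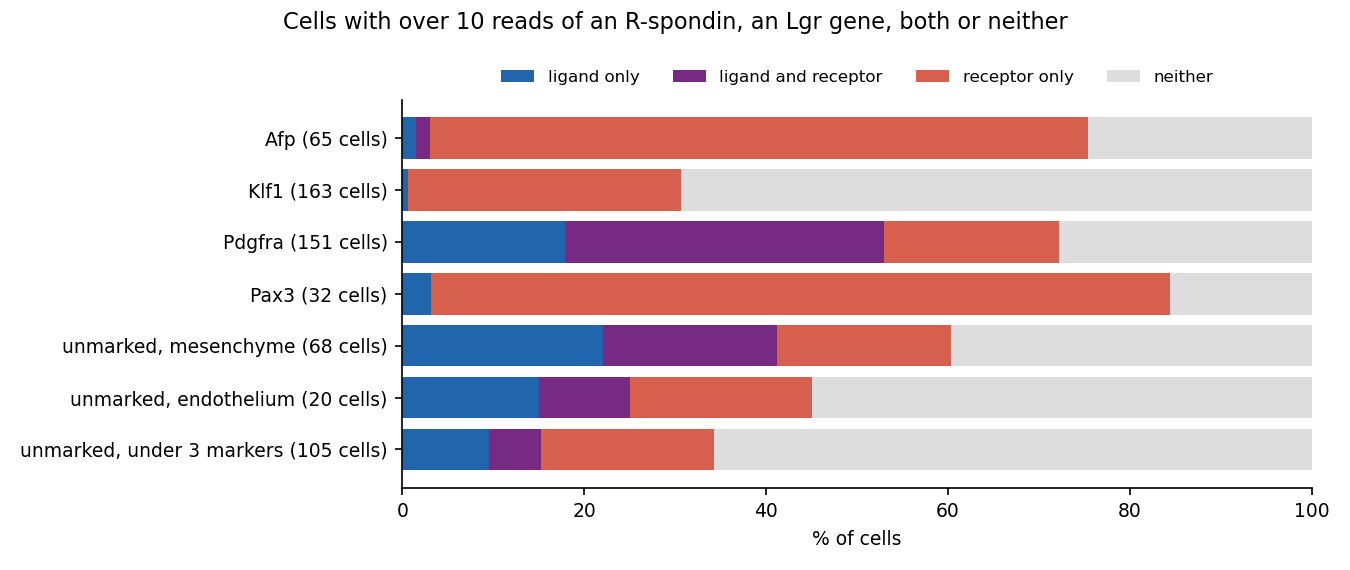
Cells with over 10 reads of at least 1 R-spondin only (blue), of an R-spondin and an Lgr gene (purple), of an Lgr gene only (red) or of neither (grey), as % of the cells of a class (x axis), for the 4 marker classes and 3 sets of unmarked cells split by marker lists. Blue and purple together reach 52.98% in the Pdgfra class and 3.08% in the Afp class.

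The receptor that went with the ligands in the Pdgfra class was mostly Lgr4. Of 37 Pdgfra class cells with Rspo1, 24 had Lgr4 (64.86%, where 45.03% of the class had it) and 5 had Lgr5. Of 22 with Rspo3, 14 had Lgr4 and 2 Lgr5. Of 31 with Rspo4, 13 had Lgr4 (41.9%) and 9 had Lgr5 (29.03%, where 13.25% of the class had it), and Lgr5 and Rspo4 were both more often found in the GFP+ cells of this class. The pools also move with these shares. Lgr4 was found in 16.98% of the class in pools 1 and 2 and 60.20% in pools 3, 4 and 5. Of the 37 cells with Rspo1, 32 were from pools 3, 4 and 5, so the share of the whole class is not a like base. Of the ligands, 9 cells of the class had both Rspo1 and Rspo4, which is 24.32% of the cells with Rspo1, where 20.53% of the class had Rspo4, and 29.03% of those with Rspo4, where 24.50% of the class had Rspo1. Both Rspo1 and Rspo3 were found in 4 cells. Over all cells, 16.4% had 1 R-spondin, 4.44% (29 cells) had 2, 2 cells had 3 and 0 had all 4.

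Receptor and ligase shared cells. Of the 23 Afp class cells with Lgr5, 15 had Lgr4 (65.2%, where 61.5% of the class had it), 18 had Znrf3 (78.3%, where 66.2% had it) and 7 had Rnf43 (30.4%, where 23.1% had it). Of the 15 with Rnf43, 12 had Lgr4, 12 had Znrf3 and 7 had Lgr5. All 9 Pax3 class cells with Lgr5 had Znrf3, and 19 of the 20 Pdgfra class cells with Lgr5 had it. Cells with more detected genes hold more of any pair, so these shares describe cells of unequal detection and are not read further.

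The effect of the sort was first read at E10.5. In summed reads of a group, fewer cells of a class and fewer reads per cell cannot be told apart, so the classes held by each group stand beside the values. Of the 8 genes tested (at least 1 RPM in either group), Lgr5 (by the gate), Rspo4 and Rnf43 were at least 2-fold higher in Lgr5-GFP+ than in bulk cells, on RPM + 1, where 12.9% of all genes were. Rspo3 was at least 2-fold lower, where 11.5% of all genes were. Rspo4 was at 55.3 RPM in GFP+ cells and 23.6 in bulk cells (log2 ratio 1.20, and 0.55 without pools 1 and 2), Rnf43 at 30.4 and 0.427 RPM (4.46) and Rspo3 at 6.14 and 33.4 RPM (-2.27). With Rnf43, the number of Afp class cells went from 8 in bulk to 55 in GFP+ cells. Lgr4 (186.8 and 134.8 RPM), Znrf3 (235.6 and 159.9), Rspo1 (34.7 and 37.1) and Rspo2 (12.4 and 9.85) lay within 2-fold.

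Within the Pdgfra class at E10.5, where GFP+ (65) and bulk cells (78) can be compared, the GFP+ cells held more Rspo4 and less Lgr4 in summed reads. The differences of Rspo1 and Lgr4 varied with the pool. Rspo4 had over 10 reads in 36.9% of GFP+ cells (25.3 to 49.8%, 24 of 65) and 8.97% of bulk cells (3.68 to 17.6%, 7 of 78). By pool the GFP+ share of Rspo4 was 30.8, 28.6, 53.8, 40.9 and 20% in pools 1 to 5, against 6.25, 7.69, 11.8, 6.25 and 12.5% in bulk. The share was higher in GFP+ cells in all 5 pools, in pool 2 with 2 of 7 GFP+ and 1 of 13 bulk cells. The intervals over all pools did not overlap, but they count cells of 1 sample per group and are no test of the sort. The summed level was 109.6 and 25.2 RPM (log2 ratio 2.08), 1.33 without pool 1 and 1.30 without pools 1 and 2.

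Rspo1 had over 10 reads in 35.4% of these GFP+ cells (23.9 to 48.2%, 23 of 65) and 17.9% of bulk cells (10.2 to 28.3%, 14 of 78). The share was higher in GFP+ cells in 4 of 5 pools, and in pool 2 it was 0 of 7 GFP+ cells and 2 of 13 bulk cells, and the intervals over all pools overlap. The level was 94.9 and 42.9 RPM, a log2 ratio of 1.13, which fell to 0.57 without pool 1 or without pool 5, so the 2-fold call rests on these pools. By pool, the level was lower in GFP+ cells in pool 2 (0 and 93.4 RPM) and pool 4 (51.3 and 61.1 RPM). Rspo3 was found in 7.69% of GFP+ cells (5 of 65) and 17.9% of bulk cells (14 of 78), at 16.3 and 31.9 RPM (log2 ratio -0.93), with intervals that overlap and a log2 ratio of -0.11 without pool 4. It was 0.30 without pools 3, 4 and 5. Rspo2 was found in 6 and 5 cells, and its log2 ratio of 0.70 was 4.19 without pool 3 and -1.44 without pools 1 and 2.

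Lgr4 was at 58.4 RPM in the GFP+ and 137.9 RPM in the bulk Pdgfra class cells (log2 ratio -1.22, and -1.43 to -1.04 with each pool left out). By pool, the level was higher in GFP+ cells in pool 1 (57.05 and 47.31 RPM) and lower in the other pools. The shares, 43.08% (30.85 to 55.96%) and 51.28% (39.69 to 62.77%), overlapped, and the share was lower in GFP+ cells in 3 of 5 pools. Znrf3 was within 2-fold, at 158.5 and 88.06 RPM. Lgr5 was at 36.02 and 0.5129 RPM by the gate, and the higher call of Rnf43 rests on 1 GFP+ cell. In all, 4 of the 8 genes tested were called higher, where 16.6% of all genes were, and 1 lower, where 16.2% of all genes were.

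**Figure D4:**
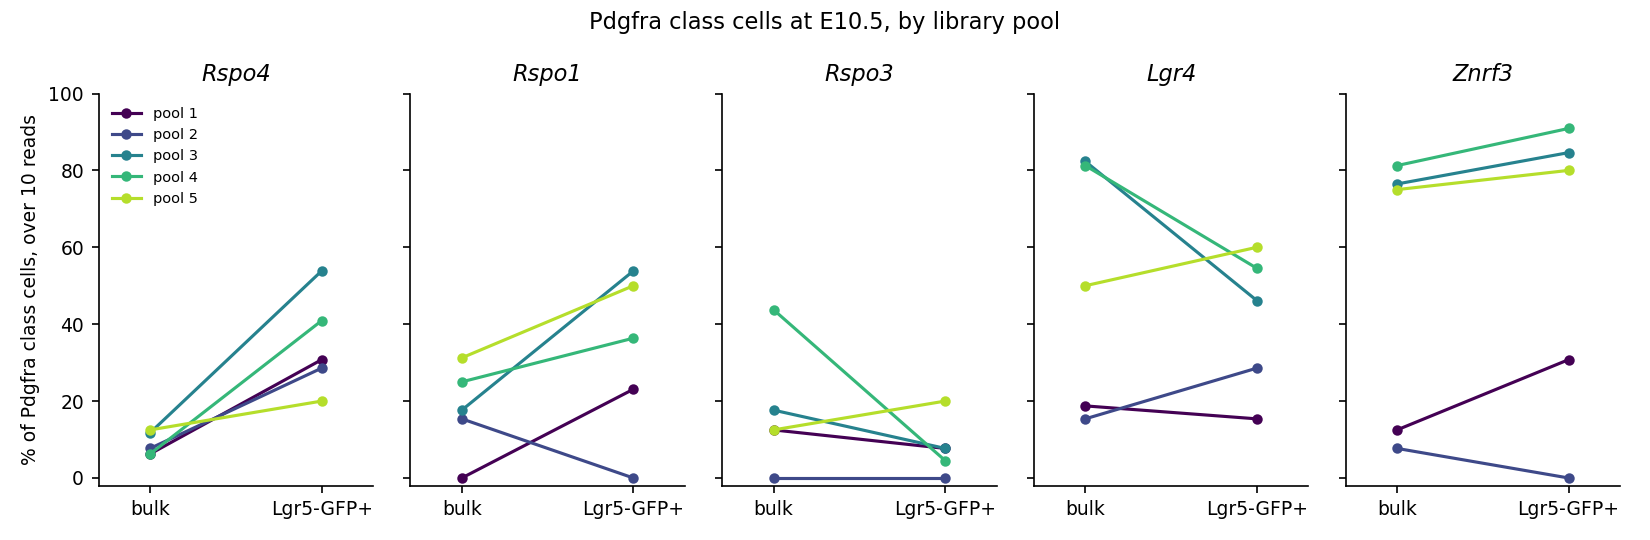
Share of Pdgfra class cells at E10.5 with over 10 reads (y axis, % of cells) of Rspo4, Rspo1, Rspo3, Lgr4 and Znrf3 in bulk and Lgr5-GFP+ cells (x axis), with a line for each of the 5 library pools. All 5 lines of Rspo4 go up to the GFP+ cells (20 to 53.8%), and those of Lgr4 and Znrf3 lie lower in pools 1 and 2 than in the other pools.

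Other genes of these cells differed along with the ligands. The mesenchyme list summed to 4342 RPM in the GFP+ and 2908 RPM in the bulk Pdgfra class cells (7 of 7 genes higher in GFP+ cells), the muscle progenitor list to 33.4 and 0.695 RPM, the endothelium list to 57.8 and 89.8 RPM, and Pdgfra itself to 250.4 and 412 RPM. Of the erythroid list, at 30.8 RPM in the GFP+ cells, 0 of 7 genes were higher in them than in the bulk cells. Whether the GFP+ and bulk cells of the class are the same kind of mesenchymal cell was not tested. Of 8 Wnt target genes tested, 5 were at least 2-fold higher in the GFP+ cells, against 16.6% of all genes, and 0 lower, against 16.2%: Axin2, a negative regulator of the pathway (57.5 and 20.7 RPM), Nkd1 (204.9 and 82.61), Lef1 (133.2 and 55.85), Tbx3 (128.3 and 25.81) and Sp5 (1.39 and 0), which was tested only through its level in the GFP+ cells. Nkd1, Lef1, Sp5 and Tbx3 were named here after their values had been seen. The median log2 ratio of the target list was 1.25, against 0.01 over all genes tested, and of the 10 secreted Wnt inhibitors tested 5 were higher and 1 lower, against the same shares of all genes.

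At E13.5 few bulk cells had over 10 reads of a ligand or of Lgr5, whereas Znrf3 was found in 29.6% and Lgr4 in 21.4% of them. Of the 8 genes tested, 6 (Lgr4, Lgr5, Rspo1, Rspo2, Rspo4 and Znrf3) were at least 2-fold lower in E13.5 than in E10.5 bulk cells, where 34.6% of all genes were, and Rnf43 was at least 2-fold higher, where 12.9% were. With a pseudocount of 5 RPM, Rnf43 (log2 ratio 0.80) and Lgr5 (-0.51) lay within 2-fold, and without pools 1 and 2 Znrf3 did (-0.83) while Rspo3 was lower (-4.37). Rspo1 was at 0.0733 and 37.1 RPM, Rspo4 at 0.0846 and 23.6 RPM and Rspo2 at 0.186 and 9.85 RPM in E13.5 and E10.5 bulk cells. None of the E13.5 bulk cells had over 10 reads of these 3 ligands, which allows up to 1.89%. Over the same interval the Pdgfra class went from 38.4% to 0.629% of the cells and the Klf1 class from 16.3% to 79.2%, and the median log2 ratio of all genes tested was -0.30. Rnf43 at E13.5 (4.42 RPM) came from 3 Klf1 class cells with 65 reads or more each.

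The stages were also compared within the Klf1 class. Lgr4 was at 94.3 RPM in 33 E10.5 and 36.3 RPM in the E13.5 bulk cells (log2 ratio -1.36), with shares of 51.5% (33.5 to 69.2%) and 23.8% (16.7 to 32.2%). Znrf3 was at 102.7 and 47.79 RPM (-1.09), with shares of 48.5% (30.8 to 66.5%) and 34.1% (25.9 to 43.1%). Of 5 genes tested, 4 (Lgr4, Lgr5, Rspo3 and Znrf3) were called lower, where 19.7% of all genes were, and Rnf43 higher, where 14.9% were. The Lgr5 and Rspo3 calls rest on 1 E10.5 cell each. Rnf43 was found in 3 E13.5 cells (2.38%) and 1 E10.5 cell (3.03%), so its higher level was not matched by a higher share. In pools 3, 4 and 5 alone, Lgr4 was found in 16 of 27 E10.5 and 26 of 79 E13.5 cells (59.3 and 32.9%) and Znrf3 in 15 of 27 and 39 of 79 (55.6 and 49.4%), and the levels lay within 2-fold, at 83.02 and 42.08 RPM for Lgr4 (log2 ratio -0.96) and 81.1 and 65.5 RPM for Znrf3 (-0.30). The 2-fold calls of both genes thus rest on pools 1 and 2, which held 6 E10.5 cells, of which 1 had over 10 reads of Lgr4 and 1 of Znrf3. In pool 4, Lgr4 was at 56.8 RPM at E10.5 and 60.5 RPM at E13.5. The erythroid list was at 1986 RPM at E10.5 and 4859 RPM at E13.5, and the mesenchyme list at 130.3 and 5.65 RPM.

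Between the sorts at E13.5, 6 of the 8 genes tested were at least 2-fold higher in the 80 GFP+ than in the bulk cells, where 37.2% of all genes were, and Rnf43 was lower, where 19.7% were. They were Lgr5 by the gate, Lgr4 (86.9 and 34.9 RPM), Rspo3 (66.6 and 17.5 RPM), Rspo2 (17.95 and 0.1862 RPM), Rspo1 (5.97 and 0.0733 RPM) and Lgr6 (1.13 and 0.0226 RPM). Lgr6 lay within 2-fold with size factors from medians of ratios (log2 ratio 0.98) and with a pseudocount of 5 RPM (0.29), as did Rnf43 with that pseudocount (-0.87). Without pools 1 and 2, Lgr4 (-0.14) and Rspo2 (0.86) lay within 2-fold and Rspo1 was under 1 RPM in both groups, and without pools 3, 4 and 5 Rspo3 lay within 2-fold (0.64), Znrf3 was higher (2.53) and Lgr6 was under 1 RPM in both groups. The values of Rspo1, Rspo2 and Lgr6 rest on 1, 2 and 2 cells with over 10 reads, whereas Rspo3 was found in 12 of 80 GFP+ cells (15%, 7.998 to 24.74%) and 1 bulk cell (0.6289%, 0.01592 to 3.454%). Lgr4 was found in 20% and 21.4% of the cells, so its higher level was not matched by a higher share. Znrf3, within 2-fold in level over all pools, was found in 15% of GFP+ and 29.6% of bulk cells.

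Between the stages within the GFP+ sort, Rspo3 was the only gene of the 9 tested that was at least 2-fold higher at E13.5, where 22.4% of all genes were: 66.6 RPM in 12 of 80 cells, against 6.14 RPM in 6 cells (2.84%) at E10.5 (log2 ratio 3.24). At least 2-fold lower, where 25.7% of all genes were, were Rspo4 (0.0959 and 55.3 RPM), Rnf43 (0.160 and 30.4 RPM), Rspo1 (5.97 and 34.7 RPM), Znrf3 (61.2 and 236 RPM), Lgr5 (23.2 and 65.3 RPM) and Lgr4 (86.88 and 186.8 RPM). Without pools 3, 4 and 5, Znrf3 (log2 ratio -0.99), Rspo1 (-0.85), Lgr5 (-0.84) and Lgr4 (-0.44) lay within 2-fold, and Rspo2, within 2-fold over all pools, was higher (1.04) without them and lower (-2.11) without pools 1 and 2. The GFP+ cells of the stages differed in kind: 26.1% were Afp class cells at E10.5 and 2 of 80 at E13.5, and 62 of the 80 were unmarked. Lgr5 itself had over 10 reads in 29.4% of E10.5 (23.33 to 36.03%) and 3.75% of E13.5 (0.780 to 10.6%) GFP+ cells.

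The widely found genes were seen more often in some pools than in others, and the pools also differed in make-up, with unmarked cells from 25.2% of pool 4 to 49.3% of pool 1. In the Pdgfra class, Znrf3 had over 10 reads in 7 of 53 cells of pools 1 and 2 (13.2%) and in 77 of 98 cells of pools 3, 4 and 5 (78.6%), and Lgr4 in 16.98 and 60.20%. In the Afp class the shares were 48.6 and 89.3% for Znrf3 and 43.2 and 85.7% for Lgr4. Levels moved less for Lgr4 (88.49 and 99.65 RPM in the Pdgfra class, 158.1 and 189.6 RPM in the Afp class) than for Znrf3 (212.2 and 352.3 RPM in the Afp class, and in the Pdgfra class 53.79 RPM against a counting interval of 144.9 to 149.2 RPM). For the ligands in the Pdgfra class, the shares in pools 1 and 2 against pools 3, 4 and 5 were 9.43 and 32.7% for Rspo1, 5.66 and 19.4% for Rspo3 and 15.1 and 23.5% for Rspo4. In both sets of pools, ligand shares were at most 3.57% of the Afp and Klf1 classes. In the Pax3 class, Rspo1 was found in 1 of 6 cells of pools 1 and 2 (16.7%). Unmarked cells had Rspo3 in 5.97% of pools 1 and 2 and 13.89% of pools 3, 4 and 5, and Rspo1 in 3.73 and 12.04%. In pools 1 and 2, Rspo3 was at 62.47 RPM in unmarked cells and 27.79 RPM in the Pdgfra class. Thinning every cell to 100000 reads and counting any read gave 23.8% for Rspo1, 22.5% for Rspo4 and 16.6% for Rspo3 in the Pdgfra class, 38.5% for Lgr5 and 24.6% for Rnf43 in the Afp class, close to the shares from over 10 reads.

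The other genes of the Wnt pathway were taken from lists, and those at least 2-fold higher in a marker class than in each other one were counted, beside the 11.9% of all genes so called for the Pdgfra class, 8.33% for the Afp class, 6.69% for the Klf1 class and 6.08% for the Pax3 class. In the Pdgfra class these were 5 of 11 Wnt ligands tested: Wnt2 (120.7 RPM, 47 cells with over 10 reads), Wnt5a (87.9 RPM, 53 cells), Wnt11 (13.7 RPM, 15 cells), Wnt6 (3.37 RPM) and Wnt10a (1.32 RPM). Of the genes for ligand release, Wls, the carrier of Wnt ligands to the cell surface, was higher there (230 RPM, next 86.7 in the Pax3 class), and Porcn, which adds the lipid to Wnt ligands, was not (12.4 RPM, and 12.1 in the Pax3 class). Of 10 secreted inhibitors tested, 5 were higher in the Pdgfra class: Sfrp1 (436 RPM), Dkk2 (199.6), Dkk1 (65.1), Wif1 (22.2) and Sfrp5 (14). The Pdgfra class thus held ligands, R-spondins and inhibitors of the pathway alike.

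Other classes led in fewer of these genes. In the Pax3 class Wnt5b (110.4 RPM, 21 of 32 cells), the receptors Fzd4 (92.3 RPM) and Fzd10 (9.14 RPM) of 11 Wnt receptors tested and the target Sp5 (98.15 RPM, next 10.98 in the Afp class) were higher. In the Afp class they were Wnt2b (23.4 RPM, from 1 cell with over 10 reads, against 10 such cells in the Pdgfra class) and Wnt9a (6.85 RPM, 2 cells), Fzd6 (13.6 RPM, 3 cells) and the targets Ccnd1, a cyclin (log2 ratio 1.23 to the next class, with 68.4 RPM in the Pdgfra class), and Ascl2 (23.9 RPM, 4 cells). In the Klf1 class they were Wnt10b (2.10 RPM), Sfrp4 (4.36 RPM) and Myc (312.8 RPM, a log2 ratio of 1.53 to the Pax3 class). The receptors Fzd1 (125.2 RPM in the Pax3 class, 108.7 in the Pdgfra class, 41.1 in the Afp class, 0.470 in the Klf1 class) and Lrp6 (152.3, 83.51, 103.3 and 45.24 RPM) led their list without such a gap. Of 8 signal transducers 0 were called in any class, and Gsk3b (472 RPM in the Pdgfra class) and Csnk1a1 (516.4 RPM in the Afp class) had the highest levels. The target Axin2 was called for the Pdgfra class, at 37.20 RPM (48 cells), 16.98 in the Pax3 class, 16.47 in the Afp class (14 of 65 cells) and 0.1804 in the Klf1 class (0 cells).

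The genes most like each member were found by the Pearson correlation of log2(RPM + 1) over 42 units, each the cells of a class, group and pool with at least 5 cells, among 13181 genes. The units share pools, classes and depth, so the correlations are a description. Rspo1 was most like Hoxc4 (0.86), Hoxb7 (0.84) and Trabd2b (0.83), and Rspo4 like Dkk1 (0.83) and Wnt5a (0.80). For Rspo3 the nearest genes were Creb3l1 (0.64), Postn (0.64) and Pam (0.63), and for Rspo2 Hoxc5 (0.67), Gm28876 (0.66) and Erbb4 (0.63). Rnf43 was most like Akr1c19 (0.89), Sytl5 (0.86) and Hnf4a (0.86), the latter a transcription factor of hepatocytes at 147.2 RPM in the Afp class. For Lgr5 they were Rims2 (0.75), Arhgef28 (0.72) and Grb7 (0.71), for Lgr4 Srsf9 (0.75), Utrn (0.73) and Hadh (0.69), and for Znrf3 Nfe2l1 (0.71), Unc119b (0.69) and Fam76b (0.68). Between members, the highest values were those of Rspo1 with Rspo4 (0.71), Lgr4 with Znrf3 (0.61), Rspo2 with Rspo4 (0.55) and Lgr5 with Rnf43 (0.50), while Rspo3 was at 0.34 with Rspo1 and 0.20 with Rspo4.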

How the data were processed

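Smart-seq2 libraries, 1 per cell, were made from sorted liver cells of mouse embryos. Alignment by the authors was with STAR 2.6.0c to GRCm38.p6, uniquely aligned single-end reads were counted per gene with Subread 1.6.2, and the deposited table holds these raw counts of 54195 genes in 653 cells. The overlap between exons was taken from GENCODE on the same build and may differ slightly from the annotation of the counts. A deposited normalised table was not used here. Of the columns of counts, 0 were left unused.

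The groups were 203 bulk and 211 Lgr5-GFP+ cells at E10.5 and 159 bulk and 80 Lgr5-GFP+ cells at E13.5, and the Klf1 and Pdgfra classes held 163 and 151 cells. Groups came from the sample labels, and the library pools, 5 on 3 flow cells, from the sample titles and descriptions. With no labels of animal, litter or sort, each group was 1 sample and no test was made. Reads per cell had a median of 1192740.

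Cells were classed by the marker (Afp, Klf1, Pdgfra, Pax3) with the most reads, if over 10. A cell was counted for a gene with over 10 reads. RPM are summed reads of a gene over summed reads of all genes in the same cells, given per kilobase of annotated exon where genes are compared. A gene was called at a 2-fold difference of RPM + 1, among genes of at least 1 RPM in 1 of the groups compared, and this step was checked on simulated data. A class within a group was described from 10 cells and within a pool from 5. Intervals are exact at 95%, and a count of 0 was given a limit of 3 counts. Thinning used 100000 reads per cell.

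The 9 genes, the markers and the gene lists were chosen with earlier results of these data known. Named genes besides the 9 are, of each Wnt list, the 2 with the highest level in a marker class and all those 2-fold higher in 1 class, and the 3 genes most like each member of at least 5 RPM, of which 1 is not reported here. Alternatives were other read thresholds, thinning, cells with only 1 marker, a marker threshold of 100 reads, other pseudocounts and filters, size factors, the mean over cells, the level without the top cell or without the 20 most-read genes, and leaving out pools. Python 3.11.15, numpy 2.4.6, pandas 2.3.3, scipy 1.17.1 and matplotlib 3.10.9 were used.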

Additional observations from a re-analysis of the deposited data

How the results depend on the processing

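No paired analysis was possible because the results come from no test and the labels carry no replicate numbers. The library pools that bulk and GFP+ cells share were only set side by side. For each of the 9 genes the share in its leading marker class was recomputed under every alternative. The R-spondins Rspo2, Rspo3 and Rspo4 kept the Pdgfra class as leading class, and Lgr5 and Rnf43 the Afp class, in 13 of 13 alternatives. Rspo1 kept the Pdgfra class in 12, and the Pax3 class (1 of 6 cells) led without pools 3, 4 and 5. Lgr4 and Znrf3 kept the Pax3 class in 11 and 9, and the Afp class led otherwise. Lgr6, found in 5 cells, kept the Pax3 class in 10. Of the recomputed shares and counts that the report leads with, 26 moved beyond their interval or by over 1.5 times, and no 2-fold call of the 9 genes turned direction, although several were lost or gained with other pseudocounts or pools, as given beside each result. Rspo2, within 2-fold between the sorts at E10.5, was higher without pools 3, 4 and 5 (log2 ratio 2.55), and Znrf3 was higher without pools 1 and 2 (1.23). Lgr5 was called for the Afp class without pools 3, 4 and 5 (4.40), and Lgr6 was higher at E13.5 in the GFP+ sort with a pseudocount of 0.1 RPM (1.77) and without pools 1 and 2 (1.10). With a filter of 5 RPM, Lgr6 and Rnf43 between the sorts at E13.5 and Lgr5 and Rnf43 between the stages in bulk cells were not tested. The ratios of Rspo2 and Rspo3 between the sorts in the Pdgfra class, both within 2-fold, changed sign with the pools left out. The causes of the moves below were not tested.

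Counting any read gave 61.5% for Lgr5 and 36.9% for Rnf43 in the Afp class, 27.2% for Rspo2, 23.2% for Rspo3 and 29.1% for Rspo4 in the Pdgfra class, and 60.9% of that class with a ligand and a receptor. Without pools 3, 4 and 5 the values were 50% for Lgr4, 0% for Lgr6 and 33.3% for Znrf3 in the Pax3 class (6 cells left), 9.43% for Rspo1, 5.66% for Rspo3 and 3.77% with a ligand and a receptor in the Pdgfra class. Without pools 1 and 2, an alternative chosen after the data had been seen, Rspo1 was at 32.7% and ligand with receptor at 52.04%. With 1 pool left out at a time, Lgr6 in the Pax3 class ranged from 0 to 4.17%, and Rspo2 in the Pdgfra class from 3.39 to 9.82%, the lowest without pool 3.

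Counts of genes at least 2-fold apart with a pseudocount of 5 RPM were 1396 between the sorts at E10.5 (3688 with 1 RPM), 4192 between the stages in bulk cells (6891) and 4579 between them in GFP+ cells (7493), and 767, 673, 898 and 489 genes were higher in the Afp, Klf1, Pdgfra and Pax3 classes (1328, 1066, 1900 and 969). With a filter of 5 RPM they were 2301 between the sorts at E10.5 and 1192 for the Pdgfra class. Without pools 3, 4 and 5, 6230 genes differed between the sorts at E10.5. The E13.5 GFP+ cells were set against bulk cells with 65.4% of calls higher, and 52.98% without pools 3, 4 and 5.

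The main limits are that each group is 1 sample of unknown animals, that the pools differ in detection, and that the Pax3 class has 32 cells, so a share of 0 there allows up to 9.38%. With 8 Afp class cells in bulk and 2 at E13.5, hepatoblasts outside the GFP+ gate and at E13.5 are hardly sampled by this class.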
